A study of Xiphophorus maculatus with 65 samples.

Results

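*chd5*, *mmel1*, *oxtr* and *g0s2* are 4 genes of chromosome 20 of the platyfish *X. maculatus*, out of 27242 gene models for which RNA-Seq reads were counted. They were chosen by measured values of these same libraries: each was higher in the skin of the strain JpB than in that of JpA, and each was then taken from the count table by its NCBI gene symbol. Their skin levels in the 2 strains are therefore described below without a p-value, and so are the differences between liver and skin, whose skin side is among the samples that chose the genes. Tests are kept to the strains in liver and to age, label year and hour within a strain.

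The series holds 65 libraries of male fish of the inbred strains JpB and JpA (Jp163 B and Jp163 A). Their labels carry an hour or the words sham, UVB-Sham-0kJ, UV-0KJ, 0min, CO-0min or 0pt. These words were read here as marks of controls, although the labels do not explain them. JpB skin has 30 libraries of fish of 9, 10, 11 or 12 months, from 5 label years, and JpA skin has 25 libraries, at 13 months (4, labelled Y18), 20 months (5, labelled Y16) and 24 months (16, labelled Y16). JpB liver has 4 libraries at 9 months, labelled Y18, and JpA liver has 6, at 20 months (4, labelled Y16) and 13 months (2, labelled Y18). Label years are written Y12, Y14, Y15, Y16 and Y18, after the last digits of the year in the label. The words in JpB skin are UVB-Sham-0kJ in Y12, UV-0KJ, 0min or CO-0min in Y14, 0min or 0pt in Y15, 0pt in Y16 and 0min or sham in Y18. In JpA skin they are 0min or sham at 13 months, 0pt or sham at 20 months and an hour at 24 months. The livers are labelled 0min or sham, with sham alone in JpA at 13 months. The 16 JpA skin libraries at 24 months were taken at 8 hours of the day, 2 fish at each. The 2 livers at 13 months are titled as JpB but have JpA in their strain field, which was followed here.

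The 4 genes belong to unrelated processes. *chd5* encodes a chromodomain helicase of the nucleosome remodeling and deacetylase (NuRD) family, which in mammals is found mostly in neurons and testis and is known as a tumor suppressor. *oxtr* encodes the oxytocin receptor, a receptor coupled to G proteins that raises calcium through phospholipase C in smooth muscle, neurons and other cells. *mmel1* encodes a membrane metallopeptidase of the neprilysin (M13) family, which cleaves small peptides outside the cell. *g0s2* encodes a small inhibitor of the triglyceride lipase ATGL, and in mammals it is abundant in fat and liver and responds to feeding.

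The genes lie far apart on chromosome 20 of the assembly X_maculatus-5.0-male, which was made from a fish of the Jp163 A strain. The model of *chd5* (gene 102225764) spans 10097877 to 10143473, that of *mmel1* (102226632) 14653976 to 14678146, that of *oxtr* (102227251) 19347162 to 19358839 and that of *g0s2* (102231546) 30933264 to 30934774. Between neighbors in this order lie 4.51, 4.67 and 11.6 Mb. None of the 4 models overlaps another gene model, so counts are not shared with an overlapping gene. The counts are sums over whole gene models, and levels are compared here between samples and not between genes.

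Total counts ranged from 26843901 to 98104664 per JpB skin library, from 27235335 to 77841034 in JpA skin, from 83960180 to 97639817 in JpB liver and from 29871688 to 77377846 in JpA liver. Of the JpB skin libraries that share a fish label, 4 pairs differed by little more than sampling noise, with a ratio of chi-square to its degrees of freedom of 2.01 to 2.78, and each was counted as 1 sample, which left 26 JpB skin samples. JpB skin 3 stood apart from the other libraries of its fish label, with ratios of 485 to 555. JpB skin 4 had ratios of 13.8 and 13.6 to JpB skin 5 and 6 of that label, and JpB skin 15 and 16, of another label, a ratio of 9.30. JpA skin 24 and 25 share a fish label at 20 months, with a ratio of 332. So do JpA skin 22 and 23, also of 20 months, with a ratio of 86.5. Within both of these pairs the label words differ: JpA skin 22 and 24 are labelled 0pt, and JpA skin 23 and 25 sham. JpA livers 3 and 4 have fish labels that differ only by an added r, and their ratio was 226. All but the 4 pairs above were kept as separate samples, so that the 26 JpB and the 25 JpA skin samples each come from 23 fish labels. The 5 genes matched from a hepatocyte list summed to 28794 to 47813 counts per 1000000 total counts (CPM) in the livers of both strains and to 11.6 to 97.8 CPM in skin, and the 6 genes of a keratinocyte list to 1782 to 7857 CPM in skin and 228 to 443 CPM in liver. In the keratinocyte list *cldn1* had means of 174 and 181 CPM in JpB and JpA liver, and of 0.166 and 0.167 CPM in JpB and JpA skin. The liver sum of this list therefore does not give a content of keratinocytes. No label date holds both strains and their skin ages do not overlap. Strain, age and date thus go together, which means that these 3 properties cannot be told apart.

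All 4 genes were measured at low levels in skin, and *chd5* separated the strains completely. *chd5* had from 3.18 to 14.5 CPM in JpB skin (median 7.25), against 0.0996 to 1.26 CPM in JpA skin (median 0.567). The lowest JpB sample was thus above the highest JpA sample. The mean was 7.49 ± 2.89 CPM in JpB (SD, n = 26) and 0.580 ± 0.251 CPM in JpA (SD, n = 25), a log2 fold change of 3.73 with a standard error of 0.17 in edgeR's quasi-likelihood fit. Of the 20028 genes tested in skin, 1.57% passed 3 limits: a fold change of 1 or more on the log2 scale in either direction, an adjusted p (Benjamini-Hochberg) under 0.05, and a ROC area, which measures how fully single samples separate, of 0.8 or more. This share is the setting in which the genes were picked, and nothing is read from the genes having passed. In bulk tissue, fewer cells of a type and less RNA per cell cannot be told apart.

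*oxtr* nearly separated the strains. It had from 0.901 to 2.93 CPM in JpB skin (median 1.44), against 0.0303 to 0.930 CPM in JpA skin (median 0.363). Of the JpB samples 25 of 26 were above every JpA sample, and 23 of the 25 JpA samples were below every JpB sample. The exceptions were JpB skin 26, which held the lowest JpB value, and JpA skin 18 and 1, at 0.930 and 0.915 CPM. The log2 fold change was 2.11 (standard error 0.20), with means of 1.65 ± 0.543 CPM in JpB and 0.386 ± 0.241 CPM in JpA.

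*mmel1* overlapped between the strains. It had from 0.795 to 5.48 CPM in JpB skin (median 1.82), against 0.299 to 1.87 CPM in JpA skin (median 0.675). Of the JpB samples 13 of 26 were above every JpA sample, and 17 of 25 JpA samples were below every JpB sample. The highest level, 5.48 CPM, was that of JpB skin 3, the library that stands apart, while JpB skin 4 and 5 of the same fish label had 1.36 and 1.14 CPM. The log2 fold change over all samples was 1.57 (standard error 0.18) and 0.87 in the samples labelled Y16 alone, which were 11 months old in JpB and 20 or 24 months old in JpA. It was 1.77 in those labelled Y18 alone and 1.24 with both years and the year in the model.

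*g0s2* was even in JpB and uneven in JpA. It had from 0.784 to 2.30 CPM in JpB skin (median 1.49), against 0 to 6.66 CPM in JpA skin (median 0.152). The coefficient of variation was 26.2% over the JpB samples and 249.96% over the JpA samples. Of the JpA samples, 22 of 25 were below every JpB sample and 2 of these had no count, which at 3 counts per library allows up to 0.0996 and 0.0866 CPM. The other 3 were JpA skin 25 with 6.66 CPM, above every JpB sample, JpA skin 13 with 2.02 CPM and JpA skin 14 with 1.23 CPM. The log2 fold change was 1.62 (standard error 0.41), and 3.09 in the samples labelled Y18 alone, which include none of these 3 samples. Without these 3 samples it was 3.27. They were left out because they are the highest of JpA, so that a larger fold change followed from the choice and nothing is read from it. Other settings give the log2 fold change of *g0s2* as follows. It was 1.29 (standard error 0.92) in the samples labelled Y16 alone, 1.97 with both years and the year in the model, and 2.40 with DESeq2. The hepatocyte list summed to 16.9 to 97.8 CPM (median 25.7) in JpB skin and 11.6 to 56.2 CPM (median 21.3) in JpA skin, with 3 of its 5 genes higher in JpB at an adjusted p under 0.05, and its part in the *g0s2* values was not tested. JpA skin 25 had 21.3 CPM of this list, the median of its group.

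**Figure D1:**
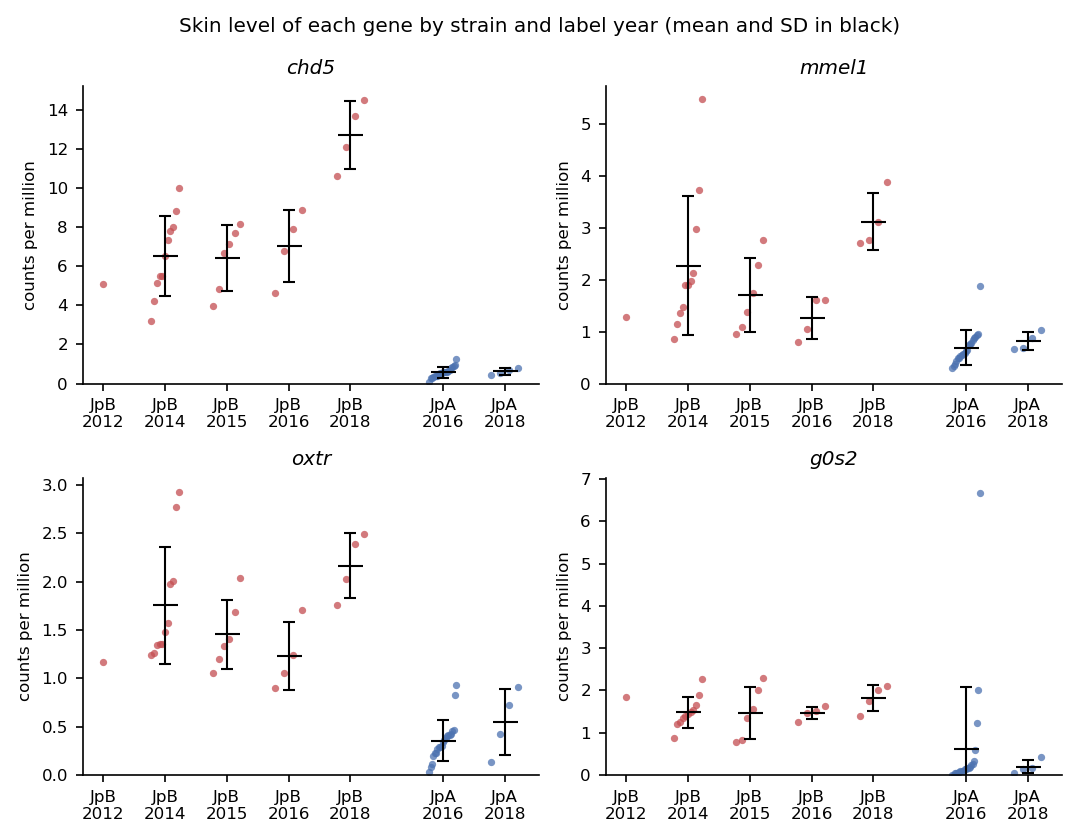
CPM of each gene in skin (y axis, linear, one scale per gene) by strain and label year (x axis); each point is a sample, with JpB in red and JpA in blue, and black bars give the mean and SD. Every JpB sample is above every JpA sample for *chd5*, the 4 JpB samples of Y18 are the highest for *chd5* at 10.6 to 14.5, and a single JpA sample reaches 6.66 for *g0s2*.

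In liver, which was not used to choose the genes, *chd5* and *oxtr* were too low to test, *mmel1* was lower in JpB and *g0s2* did not pass the test. *chd5* had 0.205, 0.0422, 0.0663 and 0.0238 CPM in the 4 JpB livers, against 0 to 0.0801 CPM in the 6 JpA livers, 2 of which had no count. *oxtr* had 0.0512, 0, 0.0111 and 0.0715 CPM in the JpB livers, against 0.0663 CPM (2 counts) in JpA liver 1 and no count in the other 5. Both genes fell below the filter on low counts. Without the filter, the log2 fold changes were 1.35 for *chd5* (adjusted p = 0.38) and 2.07 for *oxtr* (adjusted p = 0.323), and a strain difference was not detectable at this depth. The livers with no count allow up to 0.0388 to 0.10 CPM of *oxtr* in JpA, at 3 counts per library.

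*mmel1* was lower in JpB liver, the opposite direction to skin. It had 0.0717, 0.116, 0.0332 and 0.131 CPM in the 4 JpB livers (3 to 11 counts each), against 0.862, 2.34, 0.734, 0.525, 0.297 and 0.494 CPM in JpA livers 1 to 6 (18 to 70 counts each). Every JpB liver was below every JpA liver. JpA livers 3 and 4, whose fish labels differ only by an added r, were taken as separate samples. The log2 fold change was -2.72 (standard error 0.55, adjusted p = 0.0198, edgeR's quasi-likelihood test over 16818 genes), where 8.85% of genes tested passed an adjusted p under 0.05. *mmel1* passed the filter on low counts only through the JpA livers, the group where it is high. No support is read from its p-values in filtered fits. With no filter, where this does not apply, the log2 fold change was -2.69 (adjusted p = 0.0263). With a filter of 1 CPM *mmel1* was not tested. Among the livers labelled Y18 alone, 4 of JpB at 9 months and 2 of JpA at 13 months, the log2 fold change was -2.04 (adjusted p = 0.0425). The adjusted p was between 0.0553 and 0.0663 when any of the 4 JpB livers was left out, with log2 fold changes of -2.97 to -2.42, and between 0.0144 and 0.0306 when any JpA liver was left out. With scaling by the total count alone it was -3.28, where that scaling put the median of all genes at -0.47 instead of -0.08. Strain and age cannot be told apart in liver.

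Summed levels of several cell type lists moved with these livers, although few of their genes passed the test. The sums are in CPM, and scaling by the total count put the median of all liver genes at -0.47. Lower sums in JpB liver were not limited to cell type lists. The 15 NuRD and chromodomain genes summed to 199 to 246 CPM in JpB liver and 269 to 499 CPM in JpA liver. The 13 lipolysis and lipid droplet genes had medians of 659 and 600 CPM, higher in JpB. The 12 genes of the melanophore list summed to 14.6 to 16.1 CPM in JpB liver and 17.5 to 98.4 CPM in JpA liver, the 7 smooth muscle genes to 56.7 to 105 CPM and 118 to 284 CPM, and the 13 neuron genes to 3.01 to 5.05 CPM in JpB liver and 3.92 to 15.5 CPM in JpA liver. The 4 adipocyte genes went the other way, at 177 to 288 CPM in JpB liver and 135 to 185 CPM in JpA liver. Few genes made most of the melanophore, smooth muscle and adipocyte sums. In the melanophore list *kit* had means of 13.5 and 35.5 CPM in JpB and JpA liver, while *sox10* had 0.0961 and 0.0554 CPM. In the smooth muscle list *mylk* had 33.8 and 83.7 CPM and *myh11* 35.9 and 57.6 CPM. In the adipocyte list *adipor2* had 166 and 110 CPM. The sums therefore do not give the content of these cell types. At an adjusted p under 0.05, 1 of 6 melanophore genes tested, 0 of 6 smooth muscle genes and 1 of 9 neuron genes were lower in JpB liver, and none was higher. JpA liver 2 was the highest in the melanophore, smooth muscle and neuron lists and in *mmel1*, and JpA liver 3 had 50.6 CPM of the melanophore list. Without JpA liver 2 the log2 fold change of *mmel1* was -2.40 (adjusted p = 0.0144). Leaving out 1 liver does not test the part of these lists in the *mmel1* values, and that part was not tested. At 0.297 to 2.34 CPM, *mmel1* in JpA liver covered about the same range as in JpA skin, where it had 0.299 to 1.87 CPM.

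*g0s2* did not differ between the strains in liver beyond its spread. It had 58.9, 195, 171 and 316 CPM in the 4 JpB livers, against 199.6, 1.61, 4.65, 76.2, 382 and 385 CPM in JpA livers 1 to 6. The JpB livers lay within the JpA range, and JpA livers 2 and 3, of 20 months, stood far below all others. JpA liver 4, with 76.2 CPM, has a fish label that differs from that of JpA liver 3 only by an added r. The log2 fold change was 0.28 (95% interval -2.002 to 2.55, adjusted p = 0.889), so that a difference of up to about these bounds was not detectable with these livers. Its sign turned with the samples, at -0.92 in the Y18 livers alone and -0.11 without JpB liver 4. The 2 JpA livers of 13 months had 382 and 385 CPM and the 4 of 20 months 1.61 to 199.6 CPM, where age and label year cannot be told apart and no test was run. JpA livers 1, 5 and 6, labelled sham, had 199.6, 382 and 385 CPM. JpA livers 2, 3 and 4, labelled 0min, had 1.61, 4.65 and 76.2 CPM. In JpB the words overlapped, with 171 and 316 CPM in livers 3 and 4 (sham) and 58.9 and 195 CPM in livers 1 and 2 (0min). The part of the label word in these values was not tested.

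Within each strain, *chd5* had lower and *g0s2* higher levels in liver than in skin. No p is given for these differences: genes picked for high JpB and low JpA skin levels are shifted down in JpB and up in JpA when liver is set against the same skins. In JpB at 9 months and label year Y18, *g0s2* had 58.9 to 316 CPM in the 4 livers and 1.41 to 2.09 CPM in the 4 skins, which gave a log2 fold change of 8.89 (SE 0.56). In JpA at 20 months it had 1.61 to 199.6 CPM in the 4 livers and 0.0962 to 6.66 CPM in the 5 skins. The JpA groups overlapped through livers 2 and 3 and skin 25, and the log2 fold change was 7.25 (standard error 1.75). JpA liver 1 shares a fish label with skin 14, liver 2 with skins 22 and 23, and liver 3 with skins 24 and 25. JpB liver 2 shares its label with skin 31, and JpB liver 4 with skin 32. These fits of liver over skin did not pair them and take all samples as independent. Over all genes, 83.4% of 20645 tested passed an adjusted p under 0.05 between the tissues of JpB and 56% of 19393 between those of JpA. With scaling by the total count alone in place of the trimmed mean of M values (TMM), *g0s2* was 6.67 in JpB and 5.41 in JpA, and the median of all genes was at -2.49 instead of -0.29 in JpB and at -1.76 instead of -0.16 in JpA.

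*chd5* had 0.0238 to 0.205 CPM in JpB livers and 10.6 to 14.5 CPM in JpB skins, which gave a log2 fold change of -5.01 (SE 0.43). *oxtr* had 0 to 0.0715 CPM in JpB livers and 1.76 to 2.49 CPM in JpB skins, which gave a log2 fold change of -3.83 (SE 0.55). Neither gene overlapped between the tissues of JpB, and both passed the filter only through the skins. With scaling by the total count alone they were -7.18 and -5.98. In JpA *chd5* had 0 to 0.0663 CPM in the 4 livers, from 5 counts in all, and 0.274 to 0.770 CPM in the 5 skins, again with no overlap. Its log2 fold change was -1.89 (standard error 0.71), and -3.45 with scaling by the total count alone. *oxtr* was below the filter in JpA, where 2 counts were found in the 4 livers against 43 in the 5 skins.

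*mmel1* was lower in liver than in skin in JpB and overlapped in JpA. It had 0.0332 to 0.131 CPM in JpB livers and 2.71 to 3.89 CPM in JpB skins, which gave a log2 fold change of -2.93 (SE 0.38), or -5.13 with scaling by the total count alone. In JpA it had 0.525 to 2.34 CPM in the 4 livers and 0.425 to 1.87 CPM in the 5 skins, which overlapped. The JpA log2 fold change was 1.86 (standard error 0.51) with TMM scaling and 0.34 (0.58) with scaling by the total count alone. The difference of the tissue effect between the strains was not tested, since it would use the skin contrast that chose the genes.

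**Figure D2:**
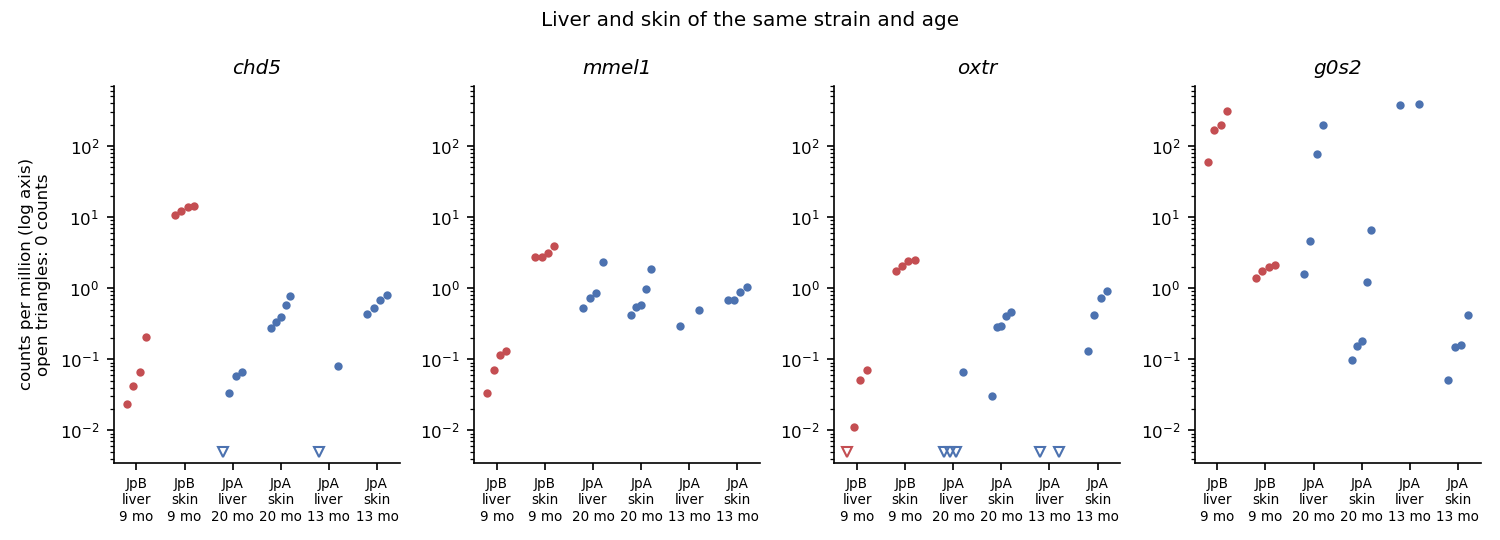
CPM (y axis, log scale) in liver and skin of the same strain and age (x axis), with JpB in red and JpA in blue; each filled point is a sample and open triangles at the bottom are samples with 0 counts. *g0s2* is far higher in most livers than in skin, where it reaches at most 6.66, *chd5* and *oxtr* are near 0 in liver, and *mmel1* is lower in liver than in skin in JpB but overlaps in JpA.

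**Figure D3:**
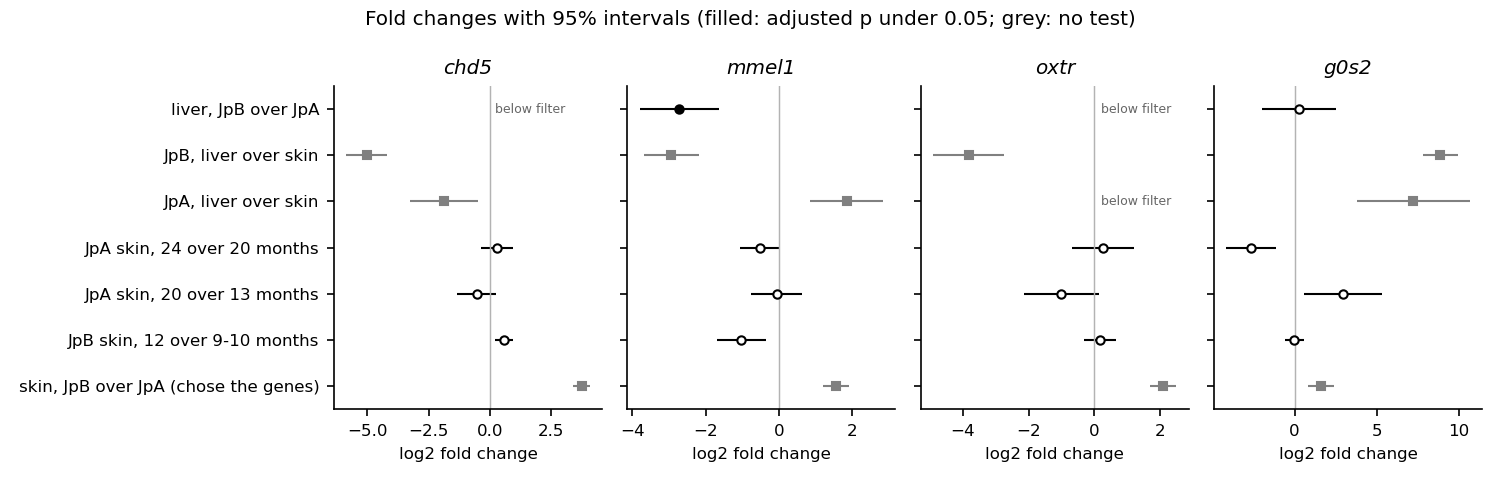
Log2 fold changes from edgeR's fits (x axis) with their 95% intervals, by comparison (rows) and gene (panels); filled circles have an adjusted p under 0.05, open circles do not, and grey squares have no test, since they use the skin samples that chose the genes. *mmel1* is at -2.72 for the strains in liver and at 1.57 in skin, and none of the 4 genes has a filled circle in the 3 age comparisons. In liver *mmel1* passed the filter on low counts only through the JpA livers, where it is high.

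Among JpB skin samples, *chd5* changed with the label year. It had 5.11 CPM in the single sample of Y12, 6.55 ± 2.05 CPM in Y14 (SD, n = 11), 6.42 ± 1.67 CPM in Y15 (n = 6), 7.05 ± 1.83 CPM in Y16 (n = 4) and 12.7 ± 1.73 CPM in Y18 (n = 4). All 4 samples of Y18, at 10.6 to 14.5 CPM, were above all samples of the other years, whose highest was 9.99 CPM. The test over Y14 to Y18 gave an adjusted p of 0.00976 (edgeR's quasi-likelihood test over 21118 genes, of which 28.6% passed). The log2 fold change of Y18 was 0.90 over Y14 (standard error 0.22, adjusted p = 0.00478), 0.99 over Y15 (0.25, adjusted p = 0.0104) and 0.89 over Y16 (0.28, adjusted p = 0.0443). Without JpB skin 31, the highest sample, the adjusted p of the test over years was 0.0523.

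The 4 JpB skins of Y18 share 1 date and the age of 9 months, and their libraries held 83911090 to 95788350 counts, against 49061356 to 66617590 in Y16. Their melanophore list summed to 325 to 362 CPM, against 204 to 295 CPM in the years Y14 to Y16, their neuron list to 54.0 to 58.7 CPM against 20.1 to 61.9 CPM, and their keratinocyte list to 2243 to 2573 CPM against 1782 to 6610 CPM. The median of the neuron list was 55.4 CPM in Y18, against 36.0, 39.3 and 37.4 CPM in Y14, Y15 and Y16. That of the keratinocyte list was 2365 CPM in Y18, against 3750, 4321 and 3459 CPM in these years. The part of these in the *chd5* level was not tested. The JpA skins of Y18, at 0.428 to 0.809 CPM of *chd5*, lay within the range of those of Y16, 0.0996 to 1.26 CPM.

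*mmel1* and *oxtr* also had their highest mean in Y18, and their lowest in Y16 among the 4 years tested, but did not pass the test over years. *mmel1* had 2.27 ± 1.34 CPM in Y14, 1.70 ± 0.708 CPM in Y15, 1.27 ± 0.409 CPM in Y16 and 3.12 ± 0.545 CPM in Y18, with an adjusted p of 0.0602 over the years. *oxtr* had 1.76 ± 0.604, 1.45 ± 0.359, 1.23 ± 0.352 and 2.17 ± 0.333 CPM in Y14, Y15, Y16 and Y18, with an adjusted p of 0.0608. Y18 over Y16, the highest over the lowest mean, gave log2 fold changes of 1.33 (adjusted p = 0.0517) for *mmel1* and 0.85 (adjusted p = 0.0562) for *oxtr*. Without JpB skin 3 the adjusted p over the years was 0.0347 for *mmel1*, and without the samples of 12 months it was 0.0393 for *mmel1* and 0.0455 for *oxtr*. Some of these samples share a fish label, and with fish labels summed both genes had an adjusted p under 0.05. *g0s2* had 1.49 ± 0.370 CPM in Y14, 1.47 ± 0.614 CPM in Y15, 1.46 ± 0.149 CPM in Y16 and 1.81 ± 0.310 CPM in Y18, which did not differ beyond their spread (adjusted p = 0.711).

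JpB label years Y14 and Y15 hold fish of 12 months and of 9 or 10 months. In Y15 the age classes have different label dates, so that age and date cannot be told apart there. In Y14 some fish of 9 months share a date with those of 12 months. The fish of Y14 are labelled CO-0min at 12 months, UV-0KJ at 9 months and 0min at 10 months, however. Age and label word therefore cannot be told apart in Y14. *chd5* had 7.99 and 9.99 CPM at 12 months in Y14 and 7.72 and 8.17 CPM in Y15, against 3.18 to 8.82 CPM at 9 or 10 months in Y14 and 3.95 to 7.16 CPM in Y15. JpB skin 11 and 12, of 10 months in Y14, had 3.18 and 4.24 CPM of *chd5*. Their skeletal muscle lists summed to 4103 and 2947 CPM, against a median of 327 CPM over JpB skin. The part of muscle in the *chd5* values was not tested. *mmel1* had 0.858 and 1.48 CPM at 12 months in Y14 and 0.956 and 1.09 CPM in Y15, against 1.14 to 5.48 CPM at 9 or 10 months in Y14 and 1.38 to 2.76 CPM in Y15. In Y15, with 2 samples of 12 months and 4 of 9 or 10 months, the age classes did not overlap for either gene. *chd5* was higher and *mmel1* lower at 12 months. How many other genes separate so few samples was not counted. In Y14 the age classes overlapped for both genes. With the year in the model, the log2 fold changes were 0.57 for *chd5* (standard error 0.19, adjusted p = 0.102) and -1.02 for *mmel1* (0.34, adjusted p = 0.101), so that neither passed, in a fit in which 2.7% of 20711 genes did. *oxtr* (0.17, 95% interval -0.31 to 0.65) and *g0s2* (-0.02, interval -0.59 to 0.56) had adjusted p of 0.723 and 0.981. This fit takes samples that share a fish label as independent. With fish labels summed *mmel1* passed, and with DESeq2 *chd5* and *mmel1* passed.

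None of the 4 genes passed a test of age in JpA skin. From 20 to 24 months 1.71% of 20459 genes passed, and from 13 to 20 months 1.28%. *g0s2* had 0.0514 to 0.416 CPM at 13 months, 0.0962 to 6.66 CPM at 20 months and 0 to 2.02 CPM at 24 months. Its log2 fold change was -2.64 for 24 over 20 months (95% interval -4.15 to -1.13, adjusted p = 0.0717) and 2.95 for 20 over 13 months (0.60 to 5.31, adjusted p = 0.201). Both values rest on JpA skin 25, without which they were -0.68 and 1.00. *chd5* had medians of 0.613, 0.396 and 0.569 CPM at 13, 20 and 24 months, *mmel1* of 0.782, 0.587 and 0.636 CPM and *oxtr* of 0.574, 0.294 and 0.354 CPM, and their 6 log2 fold changes were between -0.996 and 0.29, with adjusted p of 0.365 to 0.961. Each JpA age has its own label date, and age and date cannot be told apart.

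Neither *chd5* nor *mmel1* had a daily course in JpA skin that passed the test, in a fit in which 2.27% of 18314 genes did. *chd5* was lowest at hours 11 and 17, at 0.275 and 0.373 CPM and at 0.0996 and 0.555 CPM, and highest at hour 2, at 0.567 and 1.26 CPM. The fitted 24 h curve of *chd5* peaked at hour 1.05 with an amplitude of 0.33 log2 (adjusted p = 0.519), and that of *mmel1* at hour 3.25 with 0.18 log2 (adjusted p = 0.679). *oxtr* and *g0s2* were below the filter. *oxtr* had its lowest pair at hour 11, at 0.0799 and 0.110 CPM, and *g0s2* its highest sample at hour 14, JpA skin 13 with 2.02 CPM, while the other fish of that hour had 0.258 CPM.

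**Figure D4:**
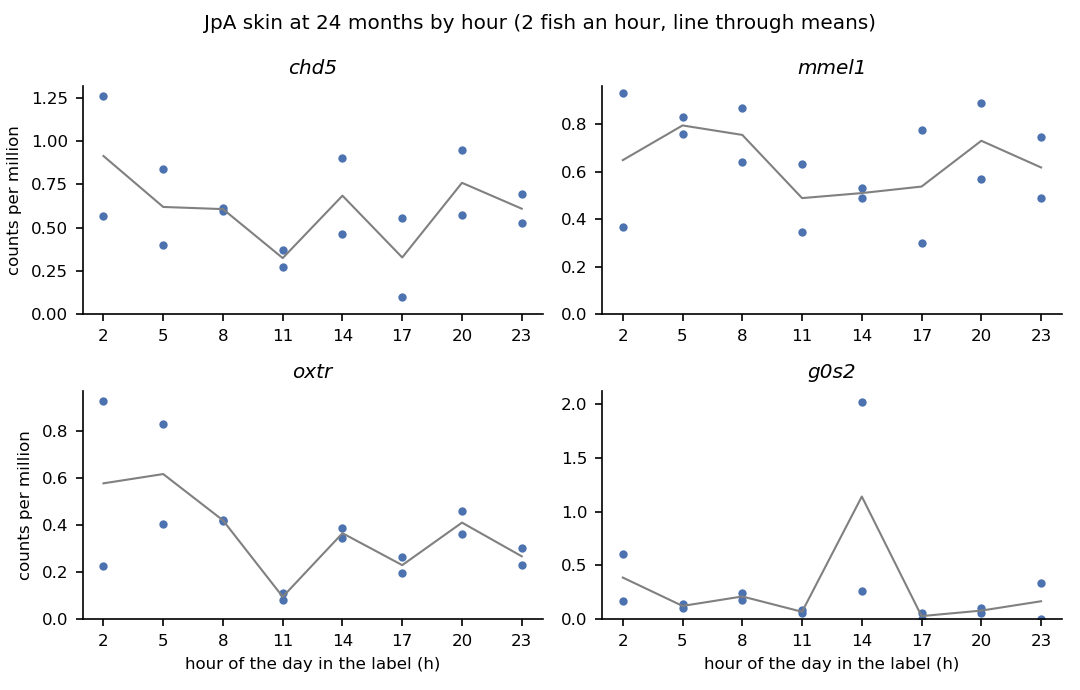
CPM (y axis, linear, one scale per gene) in JpA skin at 24 months by the hour of the day in the label (x axis, h); points are single fish, 2 at each hour, and the line joins their means. The fish of 1 hour often differ as much as the hours do, and the highest point for *g0s2*, 2.02 at hour 14, belongs to a single fish.

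Within a strain *oxtr* ran most closely with *chd5* in JpB and with *mmel1* in JpA. Over 12 correlations of log2 CPM, 6 in each strain, Pearson's r ranged from -0.05 to 0.54 and none passed an adjusted p under 0.05. The closest were *mmel1* and *oxtr* in JpA skin (n = 25, r = 0.54, permutation p = 0.00566, adjusted p = 0.0679, Spearman's rho 0.57, permutation p = 0.00332, adjusted p = 0.0398) and *chd5* and *oxtr* in JpB skin (n = 26, r = 0.48, permutation p = 0.0117, adjusted p = 0.0699, rho 0.51, permutation p = 0.00828, adjusted p = 0.0497). Without the 2 samples farthest from the median of the first gene, r was 0.52 for *mmel1* and *oxtr* and 0.34 for *chd5* and *oxtr*. After the mean of each label date was subtracted, r was 0.56 for *mmel1* and *oxtr* in JpA (permutation within dates, adjusted p = 0.0561) and 0.71 for *chd5* and *oxtr* in JpB (n = 22, permutation within dates, adjusted p = 0.0214). *g0s2* had r between -0.05 and 0.22 with the others in JpB and between 0.10 and 0.44 in JpA. The 26 JpB samples and the 25 JpA samples each come from 23 fish labels, and some are not independent.

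The genes beside the 4 on chromosome 20 were not chosen for a strain difference, so that smaller values among them follow from the choice of the 4. The skin log2 fold changes of the 24 nearest tested genes, 3 on each side of each, ranged from -1.33 to 0.66 with a median of -0.14. Of these, 2 passed the 3 limits, both lower in JpB, where 1.57% of all genes tested and 35 of 983 on chromosome 20 did. At an adjusted p under 0.05 alone, 8 of the 24 were higher and 5 lower in JpB. Over all genes tested in skin, 13.2% were higher and 12.3% lower at that limit. Beside *oxtr*, *cav3*, a caveolin of muscle membranes that starts 14.2 kb away, had 6.89 ± 3.28 CPM in JpB and 16.9 ± 10.6 CPM in JpA, a log2 fold change of -1.22 (adjusted p = 4.99e-05). The skeletal muscle list summed to 117 to 4103 CPM (median 327) in JpB skin and 175 to 1660 CPM (median 572) in JpA skin, and its part in *cav3* was not tested. Beside *g0s2*, *ldlrad2*, which starts 5.09 kb away, had 0.522 ± 0.236 CPM in JpB and 1.35 ± 0.622 CPM in JpA (-1.33, adjusted p = 6.25e-09), and LOC102220339 on the same side was also lower (-0.99, adjusted p = 8.57e-07).

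On both sides of *chd5* the nearest genes had small log2 fold changes. *arhgef10l*, 1.41 kb away, had 0.26 (adjusted p = 0.0429), and LOC102226026, 0.972 kb away on the other side, had 213.6 ± 27.4 CPM in JpB and 202 ± 91.5 CPM in JpA (0.05, adjusted p = 0.808). *zpr1*, the third tested gene on that side, was lower in JpB (-0.66, adjusted p = 0.0068). Beside *mmel1*, *fam213b*, 1.01 kb away, had -0.22 (adjusted p = 0.0507) and *miip*, on the other side, 0.50 (adjusted p = 0.00919). Farther out, LOC102227408 (0.66, adjusted p = 8.68e-05), LOC102226468 (0.36, adjusted p = 0.00869) and LOC102226374 (0.30, adjusted p = 0.00847) were higher in JpB, and LOC102226728 had 0.16 (adjusted p = 0.714). Within 1 Mb of the starts of *chd5*, *mmel1*, *oxtr* and *g0s2*, 1 of 62, 3 of 56, 1 of 88 and 2 of 56 other tested genes passed the 3 limits, and 1, 1, 0 and 0 of these were higher in JpB.

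**Figure D5:**
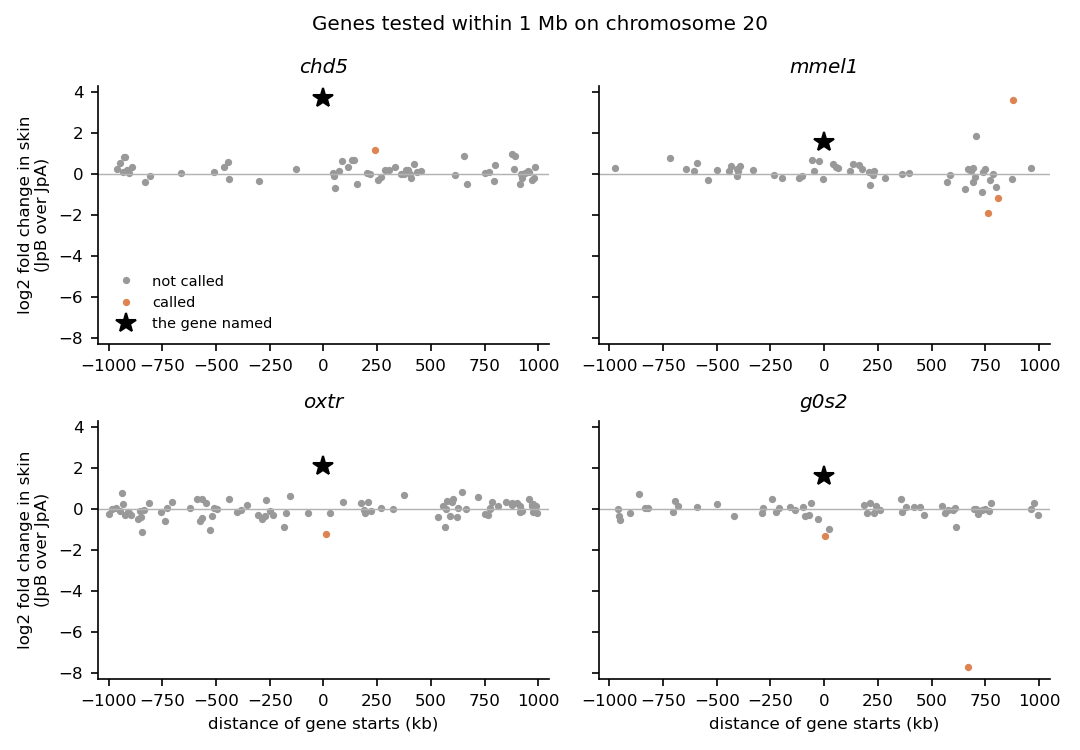
Skin log2 fold change, JpB over JpA (y axis), of the genes tested within 1 Mb of each gene (x axis, distance of gene starts in kb); the star is the gene named above the panel, orange points passed the 3 limits and grey points did not. The medians of the surrounding genes are 0.11 around *chd5*, 0.14 around *mmel1*, -0.0020 around *oxtr* and -0.02 around *g0s2*, and the stars are high because the genes were chosen so.

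The genes whose skin levels ran most like those of the 4 over all 51 skin samples share the strain difference that chose the 4. In that set *chd5* was most like the hexose transporter gene *slc2a11* of chromosome 20 (r = 0.96), *tmem8a* of chromosome 6 (0.94) and *abtb1* of chromosome 1 (0.90). *oxtr* was most like *chd5* (0.87), *slc2a11* (0.85) and *tmem8a* (0.84), and *g0s2* like *slc2a11* (0.79), *tmem8a* (0.78) and *wnt4* of chromosome 20 (0.75). *mmel1* was most like the myelin and epithelial gene *pmp22* (0.81), the collagen receptor gene *itga1* (0.79) and *chd5* (0.79). After the mean of each label date was subtracted, over 47 samples, the nearest were *scara5* (0.82), *fat4* (0.77) and *zfpm2* (0.75) for *chd5*, and *plppr1* (0.60), *tmem204* (0.59) and *tmem200a* (0.58) for *oxtr*. For *mmel1* they were *kcnb2* (0.66), *soga1* (0.65) and *msi2* (0.63), and for *g0s2* *rfx4* (0.71), *mmrn2* (0.68) and *limd1* (0.64). The correlations are descriptions over samples that share libraries and dates.

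Other genes of the same processes are given as counts beside the background: of all genes tested in skin 25.4% had an adjusted p under 0.05, 13.2% with a higher and 12.3% with a lower level in JpB, and with lists of 8 to 15 genes nothing is read from a count near these shares. The lists were matched by symbol, which found 15 of 20 NuRD and chromodomain, 8 of 22 oxytocin and vasopressin, 10 of 14 peptidase and 13 of 27 lipolysis symbols. The counts therefore cover only part of each process. Of 15 NuRD and chromodomain genes, 3 were higher and 4 lower in JpB at an adjusted p under 0.05. Their median log2 fold change was -0.13, against 0.02 over all genes tested. *mbd2*, a methyl-DNA binding subunit, was lower (-0.69, adjusted p = 0.000826), and the chromodomain helicases *chd2* (0.27, adjusted p = 0.00116) and *chd7* (-0.32, adjusted p = 0.0102) went in opposite directions, while the NuRD subunit gene *mta3* was lower (-0.31, adjusted p = 0.00459). In JpB liver *chd6* was lower (-1.87, adjusted p = 0.00742) among 14 tested, where 8.85% of all genes passed. Of 8 genes of oxytocin and vasopressin signaling, 3 were higher in JpB skin, namely the phospholipase C genes *plcb1* (0.35, adjusted p = 0.00574) and *plcb4* (0.47, adjusted p = 0.0167) and the inositol trisphosphate receptor gene *itpr2* (0.39, adjusted p = 0.00695), and none was lower (median 0.35). In liver *plcb2* was higher (1.88, adjusted p = 0.0316) and *plcb4* lower (-1.91, adjusted p = 0.0457) in JpB.

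Of 9 tested peptidase genes 2 were higher and 2 lower in JpB skin (median 0.27). The nearest relative of *mmel1* in the list, *mme* (neprilysin), went the other way, with a mean of 6.00 CPM in JpB and 12.0 CPM in JpA (-0.89, adjusted p = 0.00133). *ecel1*, of the same family, was higher (0.75, adjusted p = 0.00547), as was *dpp4* (0.32, adjusted p = 0.00108), and *thop1* was lower (-0.60, adjusted p = 0.00017). In liver *ace* was lower in JpB (-0.55, adjusted p = 0.0485), and *anpep* had no count in any JpB liver and a mean of 0.259 CPM in JpA, through which alone it passed the filter.

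Of 12 lipolysis and lipid droplet genes 3 were higher and 1 lower in JpB skin (median 0.10). The gene of the fatty acid sensing nuclear receptor, *ppara* (0.61, adjusted p = 1.52e-05), *acsl1* (0.50, adjusted p = 0.00226) and *dgat1* (0.51, adjusted p = 0.0148) were higher, and *dgat2*, which makes triglycerides, was lower (-0.86, adjusted p = 0.00215). In liver, where *g0s2* did not differ, *dgat2* (0.99, adjusted p = 0.00959) and the monoglyceride lipase gene *mgll* (1.30, adjusted p = 0.0465) were higher in JpB, and *abhd5*, the coactivator of the lipase that *g0s2* inhibits, was lower (-0.96, adjusted p = 0.0446), out of 13 tested. All p in these paragraphs are Benjamini-Hochberg adjusted values of edgeR's quasi-likelihood test over all genes of the comparison.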

How the data were processed

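The deposited values are raw read counts per NCBI gene model. The authors trimmed paired-end reads of TruSeq mRNA libraries, aligned them by TopHat2 to version 5.0 of the *X. maculatus* genome and counted them by featureCounts. Versions, strand setting and the treatment of reads that map to several places are not given in the sources used here. Reads of both strains were thus mapped to a Jp163 A genome, and the effect on JpB counts was not tested. All 27242 gene identifiers matched the NCBI annotation.

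Libraries sharing a fish label were added together if the chi-square of their counts, over genes holding 50 or more counts in both combined, was less than 3 times its degrees of freedom. Genes were kept by filterByExpr (smallest count 10), scaled by TMM and fitted over all genes with glmQLFit and glmQLFTest of edgeR 4.0.16 in R 4.3.3, with Benjamini-Hochberg adjustment. CPM are counts over the sample's total, log2 CPM used a prior count of 2, and 95% intervals are 1.96 standard errors. Correlations used 100000 two-sided permutations. DESeq2 1.42.0 was an alternative. Time of day was fitted with a cosine and a sine of 24 h. The labels do not say that libraries of different fish labels come from separate tanks or extractions, and p-values measure the spread between these samples. The 95% intervals include the spread between samples, while limits at 0 counts cover counting error only. All fits were also run on simulated counts, with known changes in genes of higher counts, a fixed spread and independent samples. That simulation does not cover the low counts of these genes in liver or samples that share a fish label.

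The genes and the lists were chosen with earlier results of these data known. Named genes are the 4, the 3 tested genes on each side, the 3 with a symbol most correlated with each, and up to 4 per pathway list with the smallest adjusted p in skin. The genes named for liver were picked after their values were seen. No sequences were used here.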

Additional observations from a re-analysis of the deposited data

Results flagged for a closer look

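In groups of 4 to 10 samples, 3 values stood apart from their group by Dixon's test at the 95% level, which chance alone exceeds in about 1 of 20 groups, and 56 group and gene combinations were examined. *g0s2* in JpA skin 25 was 6.66 CPM, against 1.23 CPM in the next of the 5 samples of 20 months. It was 0.184 CPM in JpA skin 24, which carries the same fish label but the word 0pt, where JpA skin 25 has sham. *mmel1* in JpA liver 2 was 2.34 CPM, against 0.862 CPM in the next of the 6 JpA livers. *oxtr* in JpA liver 1 was 0.0663 CPM, which is 2 counts, against 0 counts in the other JpA livers.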

How the results depend on the processing

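Of 525 values recomputed under alternatives, 462 were kept, 40 counts or values moved, 12 passed a test newly and 11 no longer passed. Kept means the same call or, for skin strain fold changes and counts of genes, a value close to the main one. A value that passed in neither fit counted as kept whatever its sign. The sign changed in 10 values, of which 0 passed a test in either fit. The number of genes called between the strains in skin was 314, and 197 with a filter of 1 CPM, 1344 in Y18 alone and 591 with the year in the model; *g0s2* was 3.09 in Y18 alone and 3.27 without JpA skin 13, 14 and 25, and *mmel1* 0.87 in Y16 alone. In liver 1488 genes were called, 3195 with DESeq2, 4035 in Y18 alone and 238 to 2129 with 1 liver left out, where *mmel1* was -2.97 to -2.40. With a replicate block, 87 genes were called and *mmel1* was -3.03 (adjusted p = 0.0610), but the numbers do not pair the strains: same-numbered samples had a median correlation of 0.054 over 18 numbers in skin and -0.0919 over 4 in liver, and 0 samples correlated best with their own number. For JpA liver over skin, *mmel1* was 0.34 with scaling by the total count, and *chd5* was -1.93 without the filter, -1.85 with a replicate block by fish label and -2.25 to -1.47 with 1 library left out. Scaling by the total count also put the share of higher genes among those called at 9.56% for liver strains (44.5% with TMM), 10.9% for JpA tissues (44.4%) and 10.3% for JpB tissues (43.7%), and gave 50.6% for 20 over 13 months (15.3%) and 43.4% for 12 over 9 or 10 months (54.6%).

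In JpA skin, 24 over 20 months gave 350 genes, 1009 with DESeq2, 581 without the filter, 60 without JpA skin 25 and up to 291 with another sample left out. For 20 over 13 months 262 genes became 806 with DESeq2 and 82 to 466 with 1 sample left out, and for time of day 416 became 2043 with DESeq2 and 111 to 3491 with 1 hour left out. For JpB label years, with 1 sample left out, 3941 to 5564 genes were called, and the adjusted p was 0.00941 to 0.0523 for *chd5* and 0.0399 to 0.128 for *oxtr*. For *mmel1* and *oxtr* it was 0.0235 and 0.0299 with DESeq2, 0.0236 and 0.0491 with fish labels summed, 0.0393 and 0.0455 without the 12-month samples, and 0.0347 for *mmel1* without JpB skin 3. For 12 over 9 or 10 months 559 genes became 1959 with DESeq2, 1757 with fish labels summed, 1849 without JpB skin 11 and 12 and 1724 without JpB skin 3; *chd5* (0.58) and *mmel1* (-1.02) passed with DESeq2, and *mmel1* (-0.95) with fish labels summed. The correlation of *chd5* and *oxtr* in JpB was 0.71 after date means were subtracted. The settings that leave out JpB skin 3, the 12-month samples or JpA skin 13, 14 and 25 were chosen after seeing the data. The cause of these changes was not tested. Levels of 0 to 20 counts limit *chd5*, *oxtr* and JpB *mmel1* in liver.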
